A study of Nematostella vectensis with 96 samples.

Results

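Calreticulin (NVE25258) and protein lunapark-B (NVE18913, hereafter lunapark) are 2 of the 23927 gene models counted in the sea anemone *Nematostella vectensis*, and both belong to the endoplasmic reticulum (ER). They were selected on their counts at mid-day (ZT6) and mid-night (ZT18), where ZT is the number of hours after lights on: both stand in published lists, made from these libraries, of genes that differed between these times for every light color. The ZT6 minus ZT18 differences given here are therefore a description, with no test. Red, green and blue animals had spent 1 month under 12 h of light of that color and 12 h of darkness per day, whereas DD animals had spent the month in constant darkness. All were laboratory-bred adults that went unfed for 2 days, and 4 whole animals per light condition were taken every 4 h at ZT2, ZT6, ZT10, ZT14, ZT18 and ZT22, so each library is 1 animal sampled once. Of the 96 libraries, the 93 with at least 100000 counts were used: 23 from red light, 24 from green light, 24 from blue light and 22 from DD. The smallest library used held 104048 counts (blue ZT10 replicate D), and the largest one left out held 25683 (DD ZT6 replicate D).

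The ER is the compartment where secreted and membrane proteins enter the secretory pathway, receive N-linked sugars and fold. Calreticulin is a calcium-binding chaperone of the ER lumen that holds newly made glycoproteins through their sugars until they fold, and it is among the most abundant ER proteins of animal cells. Lunapark, known from work in yeast and mammalian cells, is a membrane protein that sits at the three-way junctions of the tubular ER network and stabilizes them, so one member belongs to the folding machinery and the other to the shape of the organelle.

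Library totals ran from 104048 to 706046 counts with a median of 344755, and the medians were 398699 in red light, 351200 in green light, 318589 in blue light and 355354 in DD. Values below are counts per 1000000 (CPM) of library totals scaled by the trimmed mean of M values (TMM), and tests covered the 9597 genes that averaged 3 counts or more. Between libraries of the same group, the chi-square of counts per degree of freedom was 2.72 to 22.3, above counting error throughout. Blue ZT10 replicate D, blue ZT14 replicate B and DD ZT2 replicate A stood apart from their groups, with pairs at 15.3 to 22.3, 12.1 to 14.7 and 15.9 to 21.2, against at most 6.07 among the other pairs of those groups. The replicates are separate animals, and both their number and the counts behind each value set the precision of a comparison.

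Calreticulin was an abundant transcript whose level hardly separated the light conditions. It averaged 1369 ± 329 CPM over all libraries used (SD, n = 93), took 0.137% of all counts and ranked 130 among the genes tested by mean count. Its mean was 1486 ± 493.5 CPM in red light (n = 23), 1377 ± 178 CPM in green light (n = 24) and 1272 ± 265 CPM in blue light (n = 24), against 1345 ± 283 CPM in DD (n = 22). The 24 groups of light and time ran from 1877 CPM in red light at ZT2 to 1062 CPM in blue light at ZT14, a 1.77-fold range. Neighbours in an order by mean lie close by construction, and here all 23 neighbouring pairs overlapped in their animals, while not all groups further apart did, such as the DD groups at ZT6 and ZT18 described below. The pooled SD within groups was 326 CPM. Both ends of that order rest on single animals. The red ZT2 animals had 1459, 3311, 1284 and 1454 CPM, so replicate B alone stood above the other animals. The blue ZT14 animals had 1049, 521, 1195 and 1482 CPM, and the lowest of these, the lowest of the series, was one of the libraries that stood apart. A further red animal, ZT10 replicate D, had 2611 CPM, against 1290, 1068 and 1382 CPM in the other animals of its group.

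**Figure D1:**
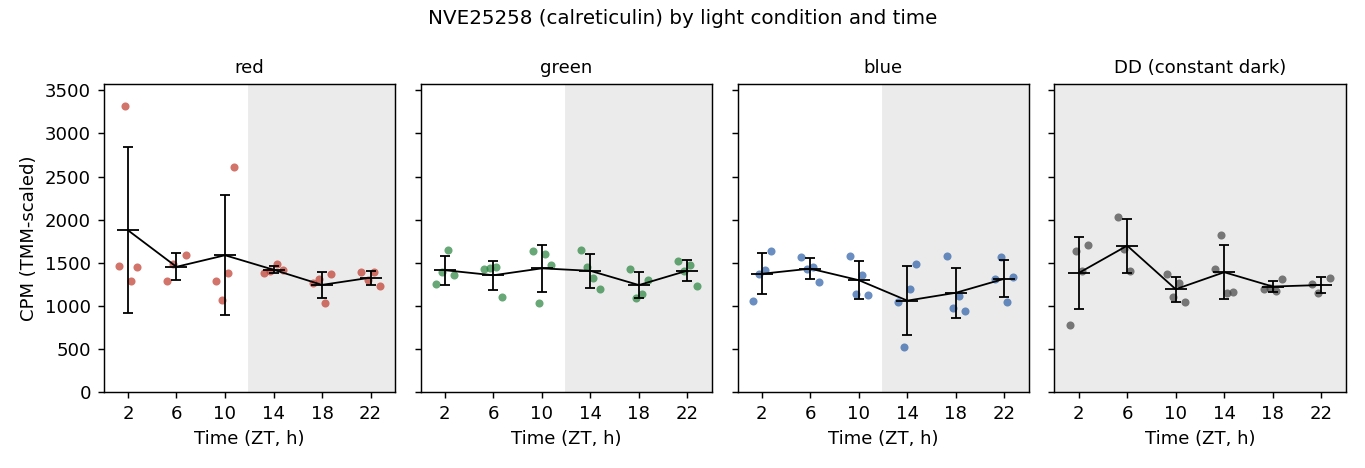
Calreticulin (NVE25258) in CPM, on a linear axis from 0, against time in hours (ZT) in red, green, blue and DD animals. Points are single animals, black lines join the group means with their SD (n = 3 or 4), and grey marks darkness. Group means lie between 1062 and 1877 CPM, with 1 red animal each at ZT2 (3311 CPM) and ZT10 (2611 CPM) above the rest.

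Lunapark was expressed at a much lower level, with a counting error of 21.4% at its mean count, against 4.45% for calreticulin. It averaged 60.04 ± 17.7 CPM (SD, n = 93), with a mean of 21.8 counts per library and between 2 and 70 counts in any one. Its mean was 57.7 ± 17.3 CPM in red light (n = 23), 64.2 ± 15.4 CPM in green light (n = 24) and 59.1 ± 19.99 CPM in blue light (n = 24), against 58.98 ± 18.2 CPM in DD (n = 22). The 24 groups ran from 75.6 CPM in green light at ZT2 to 42.9 CPM in DD at ZT2, a 1.76-fold range. Neighbours in that order overlapped in all 23 pairs, again close by construction. The groups at its ends, picked as the extremes, did not overlap in their animals. The lowest green animal had 55.1 CPM and the highest DD animal 53.9 CPM. Green and DD animals did not overlap at ZT2 for 7.42% of the genes tested. The pooled SD within groups was 17.6 CPM. The chi-square of its counts within groups was 1.73 per degree of freedom (69 degrees), against 17.6 for calreticulin. Both lay above counting error. These values rise with the counts, a mean of 21.8 for lunapark and 504 for calreticulin, so they do not compare the scatter between animals. The biological coefficient of variation was close in both, 0.217 for calreticulin and 0.200 for lunapark. In RNA from whole animals, fewer cells expressing a gene and less of its RNA per cell cannot be told apart.

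**Figure D2:**
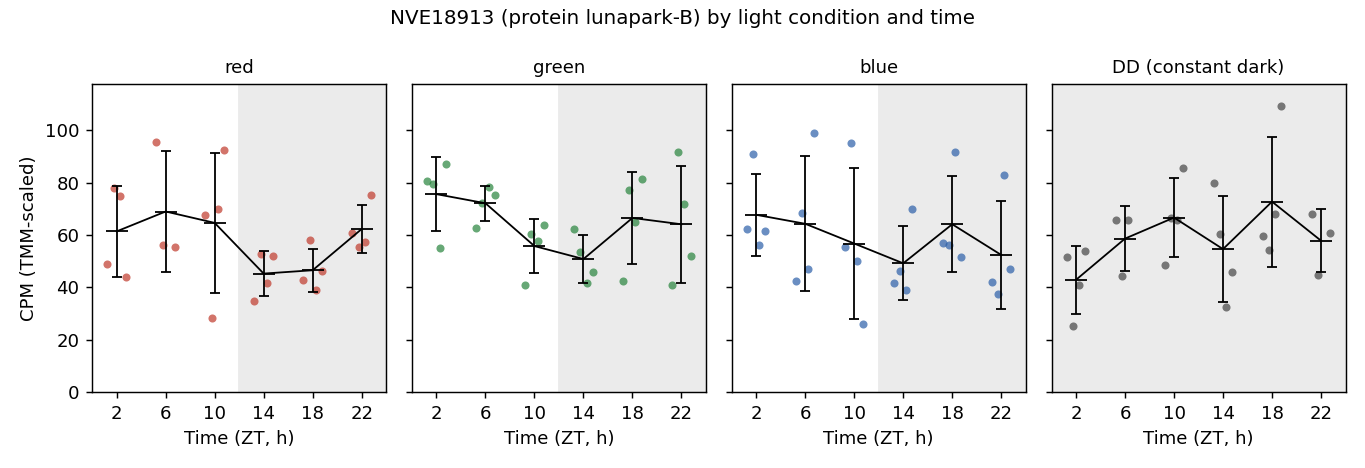
Lunapark (NVE18913) in CPM, on a linear axis from 0, against time in hours (ZT) in red, green, blue and DD animals. Points are single animals, black lines join the group means with their SD (n = 3 or 4), and grey marks darkness. All animals lie between 25.2 and 109.1 CPM, and the lowest group mean is that of DD at ZT2.

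At the pair of time points by which the genes had been selected, neither separated the ZT6 animals from the ZT18 animals in any of the light colors. For calreticulin, the red animals had 1286, 1483 and 1591 CPM at ZT6, against 1269, 1307, 1029 and 1371 CPM at ZT18. The green animals had 1424, 1437, 1454 and 1108 CPM at ZT6, against 1433, 1097, 1135 and 1303 CPM at ZT18. The blue animals had 1567, 1427, 1455 and 1279 CPM at ZT6, against 1576, 977, 1118 and 940 CPM at ZT18. The ZT6 mean was the higher one in each color, and the animals overlapped in each. Only in constant darkness did they not: the DD animals had 2027, 1665 and 1404 CPM at ZT6, against 1195, 1212, 1177 and 1314 CPM at ZT18. Groups that did not overlap between these times were found for 8.27% of the genes tested in red light, 3.34% in green light, 3.45% in blue light and 6.61% in DD. The fitted log2 differences of calreticulin were 0.22 in red light, 0.16 in green light, 0.31 in blue light and 0.45 in DD.

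Lunapark overlapped between ZT6 and ZT18 in all 4 conditions, and its differences did not share a direction. The red animals had 95.7, 56.05 and 55.3 CPM at ZT6, against 42.7, 58.01, 39.2 and 46.3 CPM at ZT18. The green animals had 62.9, 72.4, 78.2 and 75.1 CPM at ZT6, against 42.6, 77.1, 65.1 and 81.4 CPM at ZT18. In these colors the ZT6 mean was the higher one. The blue animals had 42.4, 68.6, 47.2 and 99.1 CPM at ZT6, against 57.2, 56.1, 91.5 and 51.7 CPM at ZT18. The DD animals had 65.9, 44.4 and 65.7 CPM at ZT6, against 59.5, 54.5, 67.9 and 109.1 CPM at ZT18, so that the blue means were level and the DD mean was lower at ZT6. The fitted log2 differences were 0.53 in red light, 0.16 in green light, -0.00048 in blue light and -0.32 in DD.

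A different picture came from the shallow DD library that was left out, in which both genes stood above every library used. DD ZT6 replicate D held 25683 counts in all, of which calreticulin took 4711 per 1000000, hereafter unscaled CPM, as the total was not scaled by TMM (95% exact binomial interval 3911 to 5627), against 403 to 2537 with a median of 1338 in the 93 libraries used. It held 69 lunapark counts, or 2687 unscaled CPM (2091 to 3399), against 19.2 to 109.7 with a median of 58.1. Lunapark was thus 46.2-fold above the median library, the 10th largest such ratio of 9499 genes, and calreticulin 3.52-fold, ranked 540. The intervals cover counting error only. The other 3 DD animals of that time point had 1445 to 1939 unscaled CPM of calreticulin and 42.3 to 67.6 unscaled CPM of lunapark, so the same group held ordinary levels elsewhere. In that library 763 of the 9597 genes (7.95%) were above every library used and 6344 had no count. The remaining 2 libraries left out were too small to place either gene: red ZT6 replicate C held 1 count of each among 1455, and DD ZT22 replicate C held none of either among 289, which allows up to 10381 unscaled CPM.

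The other ER genes of the list were not raised together in that library, on few counts. The 16 genes, described below, summed to 973 unscaled CPM there, from 25 counts (95% exact binomial interval 630 to 1437), against 1326 to 4657 with a median of 3766 in the libraries used. Of these, 5 had no count, 5 lay below the lowest library used (3 of them among those without a count) and 1 lay above the highest, SEC63 homolog (NVE7481, a translocation partner of SEC61), with 3 counts. These places hold for the point values. The 95% interval of SEC63 homolog, 24.1 to 341 unscaled CPM, overlaps the 17.0 to 88.8 of the libraries used. Intervals of the genes below also reach into their ranges, except for the gene described next. Ribophorin II (NVE5287), a subunit of the oligosaccharyltransferase that attaches N-linked sugars, had no count there, which allows up to 116.8 unscaled CPM, against 452 to 1475 unscaled CPM in the libraries used. Digestive gland enzymes (9 genes) summed to 3894 unscaled CPM in that library, with 2 of them at 0, against 5834 to 17899 in those used, and muscle genes (5 genes) to 2803, against 913 to 5092. What part depth or tissue content had in its values was not tested.

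**Figure D3:**
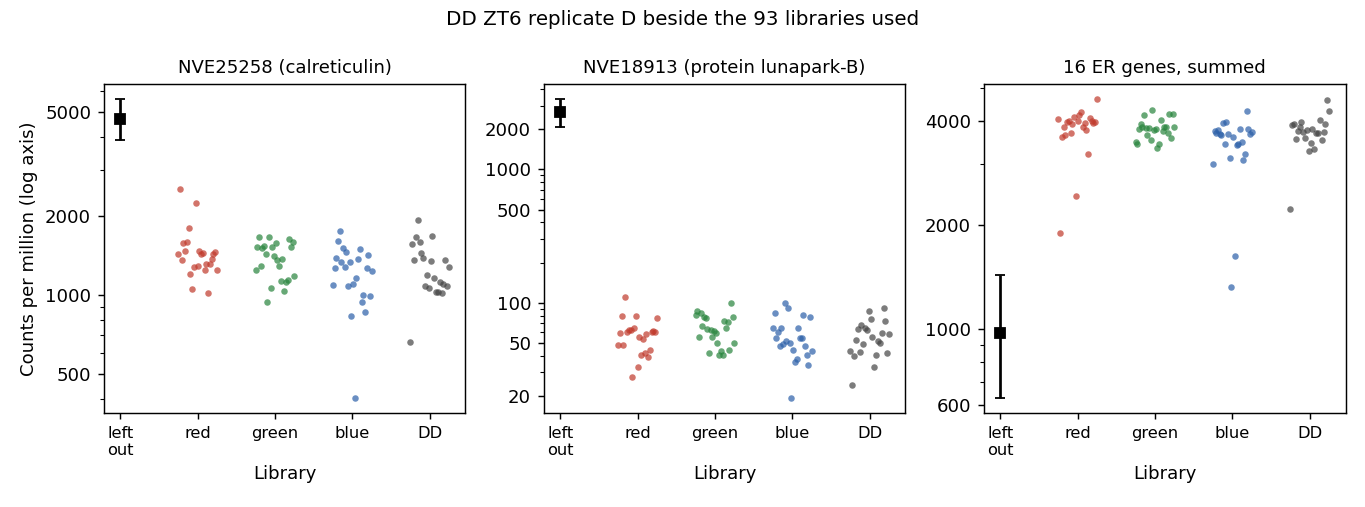
Unscaled CPM, on a log axis, for calreticulin, lunapark and the sum of 16 other ER genes. The black square is DD ZT6 replicate D with its 95% exact binomial interval, and points are the 93 libraries used, by light condition. The square lies above all points for calreticulin (4711) and lunapark (2687) and below all points for the summed ER genes (973).

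That single library raised the ZT6 minus ZT18 value of lunapark in additive fits of a color with DD, and in DD alone. In additive fits of 1 color together with DD, with terms for time, light and replicate letter, the log2 difference of lunapark with the library included was 1.53 for red, 1.27 for green and 1.15 for blue. Without it the same fits gave 0.12 for red, -0.02 for green and -0.13 for blue. Calreticulin moved less: the fits gave 0.57 for red, 0.51 for green and 0.57 for blue with the library, and 0.35, 0.29 and 0.38 without it, in the same order of colors. The fits share their DD animals and so are not separate evidence. In DD alone, the difference with the library included was 0.82 for calreticulin and 2.63 for lunapark.

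Whether light changed the mean level over the 6 time points was asked next. This is not the ZT6 minus ZT18 difference of the selection. The means do include the ZT6 and ZT18 animals, so the tests are not fully separate from the selection. By edgeR's quasi-likelihood test at 10% FDR with Benjamini-Hochberg adjustment over all genes, neither member differed in any of the 6 pairs of light conditions. Calreticulin gave log2 differences of 0.13 ± 0.09 for red minus DD (SE, 95% interval -0.06 to 0.32), 0.03 ± 0.09 for green minus DD (-0.16 to 0.22) and -0.09 ± 0.09 for blue minus DD (-0.27 to 0.10). None of the intervals reaches beyond 0.32 on either side of 0. Lunapark gave -0.01 ± 0.13 for red minus DD (-0.26 to 0.24), 0.14 ± 0.12 for green minus DD (-0.11 to 0.39) and 0.03 ± 0.13 for blue minus DD (-0.23 to 0.28). With DD ZT6 replicate D included, lunapark gave -0.34 for green minus DD and -0.45 for blue minus DD, neither of them called. The background was 12.7% of genes called for red minus DD, 5.31% for green minus DD and 7.41% for blue minus DD.

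Between colors, calreticulin was nearest to a difference in red minus blue, at 0.22 ± 0.09 (0.03 to 0.40), with an unadjusted p of 0.0226 and an adjusted p of 0.257 by edgeR. Without red ZT2 replicate B, the animal at 3311 CPM, that difference was 0.15 (adjusted p = 0.458 by edgeR). Red minus green was 0.10 (-0.09 to 0.28) and blue minus green -0.12 (-0.30 to 0.06) for calreticulin. Lunapark gave -0.03 (-0.28 to 0.22) for red minus blue, -0.15 (-0.39 to 0.10) for red minus green and -0.11 (-0.36 to 0.14) for blue minus green. Genes called made up 2.97% for red minus blue, 0.125% for red minus green and 0.907% for blue minus green.

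**Figure D4:**
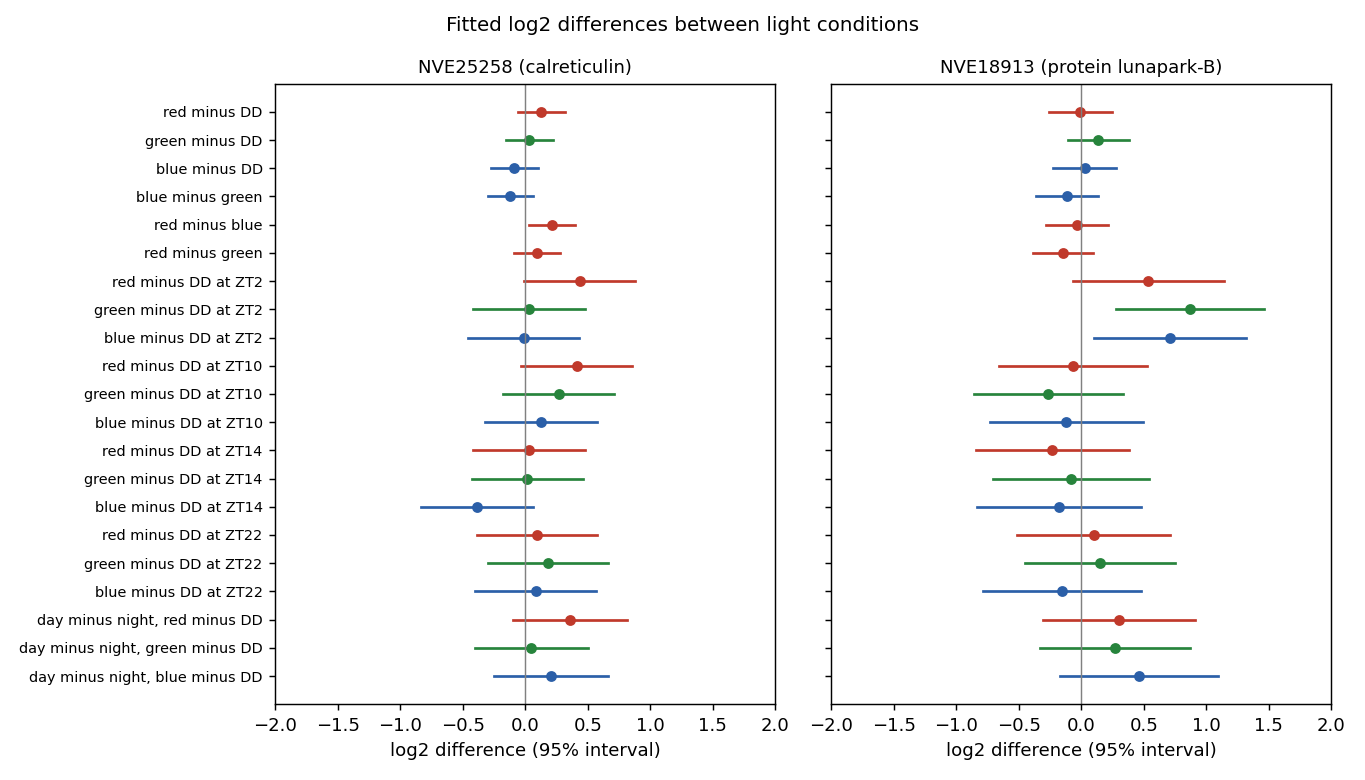
Fitted log2 differences between light conditions (points) with 95% intervals (lines), for calreticulin and lunapark, over the mean of 6 time points, at the 4 time points the selection did not use, and for the day minus night contrast. The widest departure from 0 is lunapark at ZT2, with green minus DD at 0.87, and no value passed 10% FDR in the main test.

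At single time points, lunapark at ZT2 lay furthest from DD, and on the same side of it in all colors. The green animals had 80.6, 79.5, 55.1 and 87.3 CPM, the blue animals 62.5, 90.9, 56.1 and 61.5 CPM and the red animals 48.9, 77.8, 74.9 and 44.0 CPM, against 51.5, 25.2, 41.0 and 53.9 CPM in DD. All green and all blue animals were above all DD animals, while 2 red animals fell within the DD range. Groups that did not overlap at ZT2 were found for 7.42% of the genes tested between green and DD, 4.82% between blue and DD and 6.46% between red and DD. The log2 difference was 0.87 ± 0.30 for green minus DD (0.28 to 1.46, unadjusted p = 0.00450, adjusted p = 0.165 by edgeR), 0.71 ± 0.31 for blue minus DD (0.10 to 1.32, adjusted p = 0.386) and 0.54 ± 0.30 for red minus DD (-0.07 to 1.14, adjusted p = 0.463). None passed 10% FDR, against 1.51% of genes for red, 0.792% for green and 0.396% for blue at that time. DESeq2 placed green minus DD just past the threshold (adjusted p = 0.0978). It called 210 of the 9597 genes in that contrast, where edgeR called 76. The 3 differences share the same 4 DD animals, whose lowest, replicate B, rested on 13 counts. DD replicate A, one of the libraries that stood apart, rested on 6 counts.

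For calreticulin at ZT2, red minus DD was 0.43 ± 0.22 (-0.01 to 0.88, adjusted p = 0.414 by edgeR), with the animal at 3311 CPM on the red side and, on the DD side, the animal that stood apart (781 CPM, against 1635, 1405 and 1704 CPM in the other DD animals). Without the red animal it was 0.03. Green minus DD was 0.03 (-0.42 to 0.47) and blue minus DD -0.01 (-0.46 to 0.43) at that time. At ZT14, blue minus DD was -0.38 ± 0.23 (-0.83 to 0.06, adjusted p = 0.647). The other differences at ZT10, ZT14 and ZT22 ran from 0.02 to 0.41 for calreticulin and from -0.26 to 0.15 for lunapark, and none passed. In blue minus DD, 0.24% of genes passed at ZT10, 0.177% at ZT14 and 0.0104% at ZT22, and 0% in red and green minus DD at these times. At the time points of the selection, calreticulin was -0.22, -0.32 and -0.25 in red, green and blue minus DD at ZT6 and 0.02, 0.02 and -0.09 at ZT18, and lunapark was 0.23, 0.29 and 0.10 at ZT6 and -0.61, -0.13 and -0.20 at ZT18.

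Time of day gave no call for either gene at the time points free of the selection. The mean of ZT2 and ZT10 minus that of ZT14 and ZT22, a contrast of day and night, was 0.33 ± 0.19 in red light (-0.07 to 0.72), 0.04 ± 0.12 in green light (-0.21 to 0.28), 0.19 ± 0.19 in blue light (-0.19 to 0.58) and -0.04 ± 0.17 in DD (-0.39 to 0.32) for calreticulin. For lunapark it was 0.21 ± 0.22 in red light (-0.24 to 0.65), 0.20 ± 0.18 in green light (-0.18 to 0.58), 0.39 ± 0.26 in blue light (-0.14 to 0.92) and -0.09 ± 0.23 in DD (-0.58 to 0.39). Both genes were thus higher by day in the fitted values of every color and not of DD, but the intervals of all of these include 0. The sign in DD hung on single animals. It was 0.049 for calreticulin without DD ZT2 replicate A, and 0.015 for lunapark without DD ZT2 replicate B. In green light calreticulin changed sign too, to -0.0074 without green ZT2 replicate C. The direct test of the difference between color and DD gave 0.36 (-0.10 to 0.81), 0.05 (-0.41 to 0.50) and 0.21 (-0.25 to 0.66) for calreticulin in red, green and blue minus DD. For lunapark it gave 0.30 (-0.30 to 0.91), 0.27 (-0.33 to 0.87) and 0.46 (-0.17 to 1.09), with adjusted p of 0.94 or more by edgeR for both genes. The largest single pair was ZT2 minus ZT14 of lunapark in green light, 0.59 ± 0.26 (0.05 to 1.13, unadjusted p = 0.0336, adjusted p = 0.766), from 80.6, 79.5, 55.1 and 87.3 CPM at ZT2 against 62.4, 53.4, 41.6 and 46.1 CPM at ZT14.

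A cycle with a period of 12 h was tested as well. Unlike the contrasts above, it used all time points, including those of the selection, and so is not fully separate from the selection. Its adjusted p was 0.999 in red light, 0.977 in green light, 0.983 in blue light and 0.914 in DD for calreticulin, and 0.999 in red light, 0.969 in green light, 0.984 in blue light and 0.819 in DD for lunapark (edgeR). These counts of 0 stand beside a low background, since 0% to 0.0625% of genes passed in the tests of time. The share was 0% for ZT2 minus ZT14 in red light and DD, 0.0208% in green light and 0.0625% in blue light. It was 0.0104% for ZT10 minus ZT22 in red light and DD, 0% in green light and 0.0208% in blue light. The contrast of day and night gave 0.0208% in red and green light, 0.0521% in blue light and 0% in DD, its difference from DD 0% for red and green and 0.0208% for blue, and the 12 h cycle 0% in each condition. In the 16 contrasts without any gene called, between 395 and 703 genes had an unadjusted p under 0.05, and DESeq2 called 0 to 31. Of all 74 tests of the members by edgeR, 0 passed 10% FDR and 4 reached an unadjusted p below 0.05, while DESeq2 passed 1 of 72. Among these tests, the light averages and the 12 h cycle include the animals of the selection.

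Other ER genes were described beside the members. The list holds 16 genes annotated with roles in protein entry, N-glycosylation, folding and calcium, degradation, and ufmylation (the attachment of the small modifier UFM1, which acts at the ER). It was drawn from genes that had been listed on these same libraries, so that calls among them were to be found by the choice itself, and neither their number nor their direction is independent evidence. In red minus DD, 2 of the 16 were higher and 7 lower by edgeR, where 6.45% of all genes tested were higher and 6.24% lower. In green minus DD 1 was higher and 3 lower (2.97% and 2.34% of all genes), and in blue minus DD 1 was higher and 2 lower (3.09% and 4.31%). The median log2 difference of the list was -0.09, -0.17 and -0.14 for red, green and blue, against 0.0027, 0.02 and 0.0031 over all genes tested. In no light color did either member join those lower or those higher. Leaving out a replicate letter gave 5 to 6 lower and 0 to 2 higher in red minus DD, and without the 3 libraries that stood apart these were 7 and 3. In green minus DD that setting gave 5 lower and 2 higher, but without replicate A only 1 was lower and 0 higher, and in blue minus DD 0 were lower and 0 higher without replicate A.

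Among the entry genes, the signal recognition particle protein (NVE14004, of the complex that brings nascent chains to the ER) was lower than in DD in every color, by log2 differences of -0.61 in red, -0.59 in green and -0.51 in blue light. The differences from DD share the same DD animals in all colors, also for the genes below, and so are not separate evidence. SEC61 gamma (NVE21290), part of the translocation channel, was lower in red light (-0.48), and so was signal peptidase complex subunit 1 (NVE1972, -0.45), which belongs to the enzyme that removes signal peptides. Of the glycosylation genes, an oligosaccharyltransferase subunit (NVE17816) was lower in red light (-0.41), whereas ribophorin II (NVE5287) was higher in red light than in DD (0.17) and than in blue light (0.25), the 1 gene of the list called between colors by edgeR. DESeq2 called 3 list genes in red minus blue and 3 in blue minus green. The ufmylation pair was lower as well. The conjugating enzyme (NVE7960) was lower in red (-0.74), green (-0.63) and blue light (-0.50), and the modifier itself (NVE5410) in red light (-0.59).

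Genes nearer to calreticulin in function, those of folding and calcium, did not move as one. The calcium pump SERCA (NVE3065), which fills the ER with calcium, was higher in red (1.00), green (0.97) and blue light (1.10), from a mean of only 3.26 counts per library. Calumenin-B (NVE13427), a calcium-binding protein, was lower in red light (-0.42), and a disulfide isomerase (NVE4437), which forms disulfide bonds in folding proteins, in green light (-0.43). Calreticulin, on 504 counts per library, lay between them at 0.13, 0.03 and -0.09. Adjusted p-values of the folding and calcium calls ranged from 0.0423 to 0.0962 by edgeR. Over all calls of the ER list in the light averages they ranged from 0.00064 to 0.0962. The lowest was that of the modifier NVE5410 in red light. At single time points the signal recognition particle protein was lower in blue light than in DD at ZT2 (-1.16), and edgeR called no other gene of the list at single time points or in the contrasts of time. In the 32 contrasts in which no list gene was called, up to 5 of the 16 had an unadjusted p under 0.05, and DESeq2 called up to 3.

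**Figure D5:**
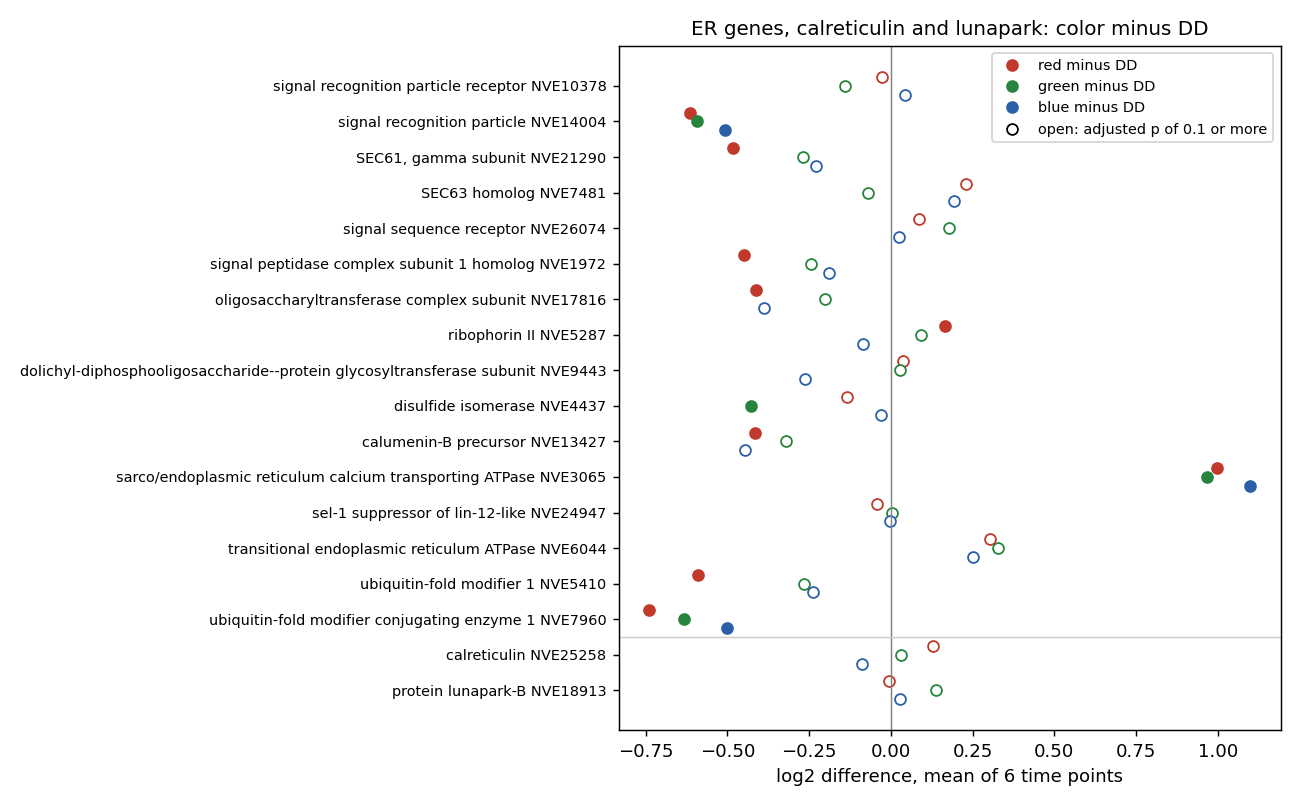
Log2 differences, mean over 6 time points, of red, green and blue minus DD for 16 ER genes and, below the line, for calreticulin and lunapark. Filled points passed 10% FDR in the edgeR test and open points did not. The signal recognition particle gene and the UFM1 conjugating enzyme lie below 0 and SERCA above 0 in every color, and all 6 points of the members are open. The colors share the same DD animals.

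Across libraries the members did not follow each other. The Pearson correlation of their log2 CPM (pseudocount 0.5) was 0.09 over the 93 libraries and the Spearman correlation -0.04, with the libraries sharing their totals as a common divisor. With DD ZT6 replicate D added, the Pearson correlation was 0.36, and the Spearman correlation 0.11. Within conditions it was 0.46 in red (n = 23), -0.24 in green (n = 24), 0.04 in blue (n = 24) and -0.09 in DD (n = 22). The red value was 0.20 without the 2 animals highest in calreticulin. Calreticulin had a correlation of 0.33 with library totals and of 0.41 with the summed level of 5 muscle genes, against 0.04 and 0.10 for lunapark. The median muscle sum was 3698 unscaled CPM in red light, 3368 in green light, 2957 in blue light and 2464 in DD. The part of depth or tissue content in the values of calreticulin was not tested.

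The genes most like calreticulin across the 93 libraries were septin 4 (NVE9571, a filament-forming GTPase, r = 0.72), nucleolin (NVE1971, a nucleolar RNA-binding protein, r = 0.69) and hsc70-interacting protein (NVE8079, a cochaperone of cytosolic Hsc70, r = 0.66), among 4331 genes that averaged 10 counts or more. Each of them was highest and second highest in the same pair of red animals as calreticulin. In red ZT2 replicate B and red ZT10 replicate D, septin 4 had 306 and 185 CPM, against a median of 97.7 CPM, nucleolin 1500 and 1292 CPM, against 780 CPM, and hsc70-interacting protein 572 and 392.5 CPM, against 232 CPM. Without these animals the correlations were 0.64, 0.64 and 0.57. The genes most like lunapark were NVE13179, NVE16507 and NVE6504, at r of 0.49, 0.48 and 0.46, weaker than for calreticulin. With DD ZT6 replicate D added, the correlation of lunapark with NVE6504 was -0.34, and its most similar genes were NVE15710 (NOP2 Sun domain family, member 7), NVE1477 and NVE19383 (a histone-lysine N-methyltransferase), at r of 0.73, 0.67 and 0.64. Of these, NVE1477 and NVE19383 had an r of 0.05 and 0.14 with lunapark over the 93 libraries.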

How the data were processed

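The authors made tag-based libraries from the RNA of whole single animals, mapped the reads to gene models with Bowtie2 and deposited counts, whole numbers per gene and library without normalization. All 96 columns were matched to samples by name. Time points 1 to 6 of the labels are ZT2 to ZT22. Members and lists were chosen with earlier results of these data known. Libraries of at least 100000 counts (93) and genes averaging 3 counts or more (9597) entered edgeR 4.0.16 (limma 3.58.1, R 4.3.3) with TMM normalization, two-sided quasi-likelihood F tests and Benjamini-Hochberg adjustment at 10% FDR. Light contrasts came from 1 fit of 24 groups and time contrasts from 1 fit per light condition. Standard errors and 95% intervals came from the same fits. The steps were tested on simulated data. The genes named are the members, every ER list gene past 10% FDR and the 3 genes with the highest Pearson correlation with each member, whereas SEC63 homolog was named after its values were seen. Gene names are those of the published annotation. Besides the digestive gland and muscle lists, yolk genes (2) summed to 28.8 to 660 and neuropeptide genes (2) to 91.8 to 355 unscaled CPM, with correlations of 0.11 and 0.06 with calreticulin and of 0.08 each with lunapark. A count of 0 allows up to 3 counts.

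The alternatives were libraries of at least 10000 counts, all 96 libraries, no filter or a mean count of 10, RLE normalization, DESeq2 1.42.0, the replicate letter as a block, 1 fit of 24 groups for the time contrasts, a pseudocount of 5 and each replicate left out. Added after seeing the data were fits without the 3 libraries that stood apart or without each library far from its group, the additive fits, and correlations without the 2 libraries highest in calreticulin. Figures and descriptive tables used Python 3.11.15.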

Additional observations from a re-analysis of the deposited data

Results flagged for a closer look

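In 3 of the 42 groups of 4 animals examined, 1 animal lay so far from the others that Dixon's test at 95% marked it, where chance alone marks about 1 group in 20. Calreticulin in red ZT2 replicate B was 3311 CPM, against 1284 to 1459 CPM in the other animals. Calreticulin in green ZT6 replicate D was 1108 CPM, against 1424 to 1454 CPM. Lunapark in blue ZT18 replicate C was 91.5 CPM, against 51.7 to 57.2 CPM, from 14 counts. In the shallow library DD ZT6 replicate D, which the tests do not use, calreticulin reached 4711 and lunapark 2687 unscaled CPM, above every library used.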

How the results depend on the processing

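Neither gene passed 10% FDR under any alternative by edgeR. Over 1642 values of the 74 member tests, 1 passed, lunapark in green minus DD at ZT2 with DESeq2 (0.93 log2, adjusted p = 0.0978; 0.109 to 0.507 under the other alternatives), and 98 changed direction, most of them differences near 0. Over all groups, libraries of the same replicate letter in different groups had a mean correlation of 0.012 (1036 pairs, 216 of them above 0.1), against -0.0039 for other pairs (3107). Within a light condition these means were 0.067 against -0.022 in green light and 0.042 against -0.014 in red light. They were 0.014 against -0.0044 in blue light and -0.00036 against 0.00019 in DD. Whether the letters pair the animals was not tested. With the letter as a replicate block, red minus blue of calreticulin was 0.21 (adjusted p = 0.284 by edgeR), and all 74 tests kept their direction and stayed short of the threshold. Of the values of the 17 ER calls over light averages, 14 under alternatives with all replicates and 30 of 68 with a replicate letter left out missed 10% FDR, and none changed direction.

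The values that changed were as follows, as log2 differences for the members and as percent of the 9597 genes of the main test for genes called. With every library of at least 10000 counts, calreticulin was -0.029 for green minus DD, and lunapark was -0.34 for green minus DD and -0.45 for blue minus DD. 1 ER list gene was higher in red minus DD and 0 ER list genes were higher in red minus blue. With all 96 libraries, calreticulin was -0.0092 for green minus DD, -0.0068 for green minus DD at ZT14, 0.074 for ZT10 minus ZT22 in DD and 0.020 for the day and night contrast in DD, and lunapark was -0.34 for green minus DD and -0.45 for blue minus DD. 0 ER list genes were higher in red minus blue. With no filter on low counts, calreticulin was -0.0092 for blue minus DD at ZT10, -0.093 for ZT10 minus ZT22 in green and 0.038 for ZT2 minus ZT14 in DD, and lunapark was 0.00096 for red minus DD, -0.00052 for blue minus DD, 0.0015 for red minus blue and -0.094 for ZT10 minus ZT22 in red. Genes called then made up 8.11% for red minus DD (main 12.7%), 2.51% for green minus DD (main 5.31%), 4.91% for blue minus DD (main 7.41%), 0.531% for blue minus green (main 0.907%), 1.84% for red minus blue (main 2.97%) and 0.0729% for red minus green (main 0.125%). 1 ER list gene was higher in red minus DD, 0 ER list genes were higher in green minus DD, 0 ER list genes were higher in blue minus DD, 1 ER list gene was lower in blue minus DD and 0 ER list genes were higher in red minus blue. With a mean count of at least 10, calreticulin was 0.043 for blue minus DD at ZT2 and 0.12 for ZT10 minus ZT22 in blue, and lunapark was 0.018 for red minus DD. 0 ER list genes were higher in blue minus DD and 2 ER list genes were higher in red minus blue. With RLE normalization, calreticulin was 0.0023 for blue minus DD at ZT2 and 0.087 for ZT10 minus ZT22 in blue, and lunapark was 0.0023 for red minus DD. With DESeq2, calreticulin was 0.087 for ZT10 minus ZT22 in blue, and lunapark was 0.0068 for red minus DD. Genes called then made up 0.292% for red minus green (main 0.125%). 5 ER list genes were lower in green minus DD, 0 ER list genes were higher in blue minus DD and 2 ER list genes were higher in red minus blue. Without the 3 libraries that stand apart, calreticulin was -0.0069 for green minus DD, -0.16 for green minus DD at ZT2, -0.013 for green minus DD at ZT14, -0.030 for the day and night contrast, green minus DD, 0.051 for ZT10 minus ZT22 in blue, 0.19 for ZT2 minus ZT14 in DD and 0.070 for the day and night contrast in DD, and lunapark was 0.0014 for red minus DD and 0.033 for blue minus DD at ZT10. 2 ER list genes were higher in green minus DD and 5 ER list genes were lower in green minus DD. Leaving out animals in turn (each replicate letter across the groups, each single library within a light condition, and each of the 3 libraries far from their group), the lowest and highest log2 differences of the results that changed direction were, for calreticulin -0.020 to 0.087 for green minus DD, -0.10 to 0.17 for green minus DD at ZT2, -0.060 to 0.19 for green minus DD at ZT14, -0.094 to 0.067 for blue minus DD at ZT2, -0.69 to 0.014 for blue minus DD at ZT14, -0.058 to 0.19 for blue minus DD at ZT22, -0.089 to 0.22 for red minus DD at ZT14, -0.024 to 0.54 for ZT2 minus ZT14 in red, -0.11 to 0.41 for ZT10 minus ZT22 in red, -0.060 to 0.12 for ZT2 minus ZT14 in green, -0.0074 to 0.098 for the day and night contrast in green, -0.023 to 0.17 for ZT10 minus ZT22 in green, -0.10 to 0.090 for ZT10 minus ZT22 in blue, -0.16 to 0.16 for ZT2 minus ZT14 in DD and -0.11 to 0.049 for the day and night contrast in DD. They were, for lunapark -0.076 to 0.072 for red minus DD, -0.40 to 0.10 for red minus DD at ZT14, -0.21 to 0.031 for green minus DD at ZT14, -0.47 to 0.14 for blue minus DD at ZT14, -0.43 to 0.062 for blue minus DD at ZT22, -0.024 to 0.25 for green minus DD, -0.13 to 0.16 for blue minus DD, -0.13 to 0.052 for red minus blue, -0.21 to 0.20 for red minus DD at ZT10, -0.23 to 0.44 for green minus DD at ZT22, -0.47 to 0.16 for blue minus DD at ZT10, -0.19 to 0.29 for ZT10 minus ZT22 in red, -0.35 to 0.028 for ZT10 minus ZT22 in green, -0.11 to 0.53 for ZT10 minus ZT22 in blue and -0.20 to 0.015 for the day and night contrast in DD. The genes called then made up 5.18% to 12.8% for red minus DD, 1.24% to 8.12% for green minus DD, 1.29% to 3.15% for red minus blue, 0.0313% to 0.188% for red minus green, 2.91% to 7.91% for blue minus DD and 0.208% to 0.99% for blue minus green, with fewer libraries in each fit. When a replicate letter was left out, 0 to 2 ER list genes were higher in red minus DD, 0 to 1 ER list genes were higher in green minus DD, 1 to 5 ER list genes were lower in green minus DD, 0 to 1 ER list genes were higher in blue minus DD, 0 to 2 ER list genes were lower in blue minus DD and 0 to 1 ER list genes were higher in red minus blue. Apart from the fewer libraries or the larger number of genes that some settings bring by construction, the cause of these changes was not tested. The fits without the 3 libraries that stand apart, and without the libraries far from their group, were chosen after seeing the data. For lunapark, with a mean of 21.8 counts per library, the counting error of 21.4% was about as large as the biological coefficient of variation of 0.200.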

Other observations

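The animals highest in calreticulin were among those lowest in the other ER genes. Red ZT2 replicate B and red ZT10 replicate D had 1894 and 2434 unscaled CPM of the 16 ER genes in sum (95% exact binomial intervals 1722 to 2078 and 2249 to 2629), against a median of 3766 over the 93 libraries. The lowest sums among the 93 also included blue ZT10 replicate D (1326), blue ZT14 replicate B (1630) and DD ZT2 replicate A (2233), the 3 that stood apart from their groups. In these 3, calreticulin was 1122, 521 and 781 CPM, below the median of 1367 CPM, whereas the red pair was highest. These CPM are scaled by TMM and the sums are not, which widens the contrast in the red pair, with factors of 0.791 and 0.893. In the 3 that stood apart the factors were 0.757, 0.796 and 0.867. DD ZT6 replicate D, left out for its depth, had a sum of 973 (interval 630 to 1437) and the highest calreticulin of the 94 libraries compared. These animals were picked out after their values had been seen, and no test was made.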
